A study of Mus musculus with 6 samples.

Results

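Collagen genes were examined in RNA-seq data of 6 subcutaneous CT26.WT tumors, divided equally between a control group and an IFN-γ group of 3 tumors. The genes were taken by name, as every symbol made of Col, a number, a and a second number, and 44 of the 55487 genes in the count table met this rule. They comprised 11 fibrillar collagens, 8 basement membrane collagens and 25 collagens of other kinds. CT26.WT is a colon carcinoma line derived from BALB/c mice, and the tumors grew from cells implanted under the skin of wild-type, immunocompetent male BALB/c mice that were 4 weeks old when purchased. Every 48 h, mice of the IFN-γ group were given 100 µL of the cytokine (100 ng/ml) into a tail vein, and control mice were given 100 µL of PBS by the same route. Each tumor is a mixture of carcinoma cells and of host cells such as fibroblasts, vessel cells and leukocytes, so a transcript cannot be assigned to a cell type. All tumors came from a single implanted line, and nothing in the labels says which tumors shared a cage or a collection day.

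Collagens are secreted proteins in which 3 α chains wind into a triple helix. Fibrillar collagens such as types I, III and V assemble into the rope-like fibers of connective tissue. Type IV collagen instead forms the sheet-like network of basement membranes, the thin layers on which epithelium and vessels rest. Fibroblasts are the best-known source of fibrillar collagen, and endothelial cells and pericytes deposit much of the type IV collagen around vessels. IFN-γ is known for repressing type I collagen transcription in cultured fibroblasts.

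The tumors had from 15759300 to 17559680 counts on genes. Levels are given as CPM (the counts of a gene relative to the total of its library, with TMM factors correcting for library composition), and 3 counts corresponded to between 0.169 and 0.188 CPM. Collagens took from 0.490% to 0.795% of all counts in a tumor. The labelled tissue was checked against a short list of epithelial genes. Krt20, a keratin of intestinal epithelium, was at 113 to 271 CPM, whereas Epcam stayed under 1 CPM in every tumor and Cdx2 had 0 counts in all 6. IFN-γ tumor 3 stood apart from the other tumors of its group in several of the comparisons given here, and values without it are given for most of the collagens named.

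Fibrillar collagens made up the largest share of collagen reads in each tumor, and their sum varied as much within a group as between groups. Their summed level was 4015, 3357 and 5358 CPM in control tumors 1, 2 and 3, and 4909, 5249 and 3160.1 CPM in the IFN-γ tumors in the same order. Group means were 4243 ± 1020 CPM for the controls and 4439 ± 1121 CPM for IFN-γ (SD, n = 3 each). Basement membrane collagens were at 1349, 1488 and 1585 CPM in the controls and at 1298, 1231 and 1068 CPM in the IFN-γ tumors. Every IFN-γ value was therefore below every control value for the summed basement membrane class, whose mean was 1474 ± 119 CPM in the control group and 1199 ± 118 CPM in the IFN-γ group (SD, n = 3 each). Most of this sum came from Col4a1 and Col4a2, with means of 719 and 449 CPM in the controls and 570 and 366 CPM in the IFN-γ group. Collagens of other kinds summed to 1003 ± 46.2 CPM in the controls and 914 ± 92.2 CPM in the IFN-γ group (SD, n = 3 each). As a share of collagen counts, the basement membrane class ran from 19.9% to 25.7% in the controls and from 16.5% to 21.2% in the IFN-γ tumors, which overlap.

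**Figure D1:**
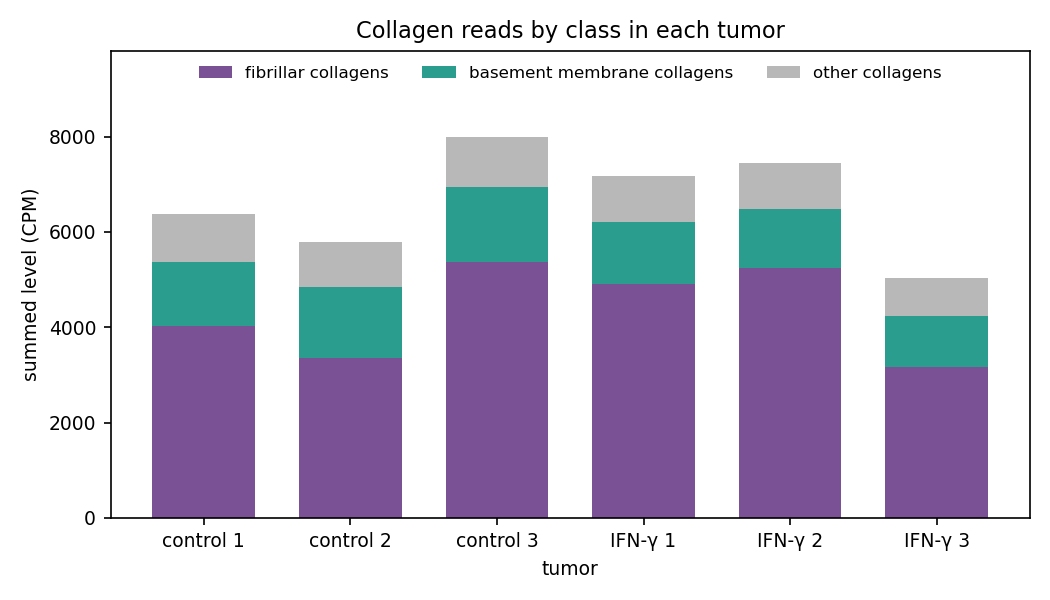
Summed level of the collagen genes in each tumor (CPM, y axis, starting at 0), with fibrillar, basement membrane and other collagens stacked in one bar per tumor. The fibrillar part was highest in control tumor 3 and IFN-γ tumor 2 and lowest in IFN-γ tumor 3, while the basement membrane part was between 1068 and 1298 CPM in the IFN-γ tumors and between 1349 and 1585 CPM in the controls.

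Differences between the groups were tested gene by gene with edgeR's quasi-likelihood test, and p values were adjusted by the Benjamini-Hochberg method over the 15114 genes with enough counts to be tested. Of the 44 collagens, 30 passed the filter and 14 did not. None of the 30 passed the adjusted threshold of 0.05 in edgeR, against 0.0331% of all genes tested that were called lower and 0.0794% called higher in the IFN-γ group. At an unadjusted p under 0.05 there were 4 collagens, Col4a2, Col4a1, Col18a1 and Col5a3, and each was lower in the IFN-γ group (all genes tested: 4.44% lower, 5.74% higher). DESeq2 also called 0 collagens (0.443% of all genes lower, 0.801% higher), as did limma-voom (0.0198% lower, 0.0662% higher). Without IFN-γ tumor 3, edgeR called 2.46% of all genes higher and 0.723% lower, and again 0 of 32 tested collagens. The median log2 fold change was -0.20 over the 30 collagens and 0.0015 over all genes tested, and 21 of the 30 were below 0, as were 49.6% of all genes. The groups did not overlap for 4 tested collagens that were lower in the IFN-γ tumors (7.5% of all genes tested) and for 1 that was higher (7.62% of all genes tested).

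Type IV collagen gave the smallest p values among the collagens. Its α1 and α2 chains, encoded by Col4a1 and Col4a2, form the network found in nearly every basement membrane. Both genes lie on chromosome 8, where GENCODE M21 (GRCm38) places Col4a1 on the minus strand from 11198423 to 11312826 and Col4a2 on the plus strand from 11312805 to 11449287. They are read in opposite directions from starts 21 bases apart, and their first exons share 22 bases. The RefSeq promoter windows on GRCm38.p6, from 250 bases before to 50 bases after each start, are shown because these genes varied together. They are chr8:11312777-11313076 on the minus strand and chr8:11312555-11312854 on the plus strand, each 5′ to 3′ on its own strand, with capitals marking CCAAT and GGGCGG or their reverse complements.
Col4a1: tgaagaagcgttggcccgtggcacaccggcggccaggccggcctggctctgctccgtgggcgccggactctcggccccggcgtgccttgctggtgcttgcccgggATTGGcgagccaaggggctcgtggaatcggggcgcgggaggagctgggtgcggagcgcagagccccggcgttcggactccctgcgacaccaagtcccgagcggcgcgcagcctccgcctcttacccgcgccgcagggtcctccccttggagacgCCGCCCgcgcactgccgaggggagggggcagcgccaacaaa
Col4a2: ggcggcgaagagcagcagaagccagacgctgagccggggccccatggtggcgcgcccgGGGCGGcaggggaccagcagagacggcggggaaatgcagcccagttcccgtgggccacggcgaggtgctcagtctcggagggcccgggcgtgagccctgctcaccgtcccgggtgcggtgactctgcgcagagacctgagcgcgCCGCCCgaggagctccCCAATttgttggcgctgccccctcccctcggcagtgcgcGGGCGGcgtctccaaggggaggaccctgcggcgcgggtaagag
The last 78 bases of one window are the reverse complement of the last 78 of the other. The Col4a1 window holds 1 CCAAT and 1 GGGCGG, and the Col4a2 window holds 1 and 3, counting both strands. The part of these sequences in the levels of both genes was not tested.

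Col4a1 was at 646, 734 and 776 CPM in control tumors 1, 2 and 3, and IFN-γ tumors 1, 2 and 3 had 629, 589 and 492 CPM. The groups did not overlap, although control tumor 1 and IFN-γ tumor 1 were close. The log2 fold change was -0.34 (95% interval -0.59 to -0.079, unadjusted p = 0.016, adjusted p = 0.37, edgeR). Col4a2 was at 414, 460.2 and 473 CPM in the controls and at 389, 364 and 343 CPM in the IFN-γ tumors, again without overlap. Its log2 fold change was -0.30 (95% interval -0.49 to -0.10, unadjusted p = 0.0075, adjusted p = 0.31, edgeR). These differences amount to 0.793 and 0.814 times the control level. They were in the same direction in each of the 13 alternative fits, from -0.41 to -0.25 for Col4a1 and from -0.35 to -0.26 for Col4a2, and the adjusted p ranged from 0.16 to 0.77 and from 0.086 to 0.76. Without IFN-γ tumor 3, the values were -0.25 and -0.26.

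Within each tumor the chains of type IV collagen kept nearly the same proportion. The ratio of Col4a1 to Col4a2 counts was 1.56, 1.595 and 1.64 in control tumors, against 1.62, 1.62 and 1.43 in IFN-γ tumors. On the log2 scale, the ratio spanned 0.20 over the 6 tumors, the narrowest range of the 9 gene pairs compared. The remaining type IV genes behaved otherwise. Col4a5, the X-linked chain mutated in Alport syndrome, was at 71.3, 90.8 and 90.1 CPM in the controls and at 89.5, 82.0 and 77.5 CPM in the IFN-γ tumors, with a log2 fold change of -0.018 (95% interval -0.26 to 0.23). Col4a3, Col4a4 and Col4a6 had 10, 12 and 9 counts in the 6 tumors together and were not tested.

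Col18a1 and Col15a1 encode multiplexins, collagens of the basement membrane zone with interrupted triple helices. The C-terminal part of the Col18a1 protein is the source of endostatin, an inhibitor of vessel growth. Col18a1 was at 137, 118 and 124 CPM in the controls and at 108, 109 and 109 CPM in the IFN-γ tumors. The IFN-γ tumors lay close together and below every control, with a log2 fold change of -0.22 (95% interval -0.39 to -0.040, unadjusted p = 0.022, adjusted p = 0.39, edgeR). Col15a1 was at 79.8, 85.0 and 122 CPM in the controls and at 82.4, 87.0 and 44.9 CPM in the IFN-γ tumors. Here the groups overlapped, control tumor 3 was the highest and IFN-γ tumor 3 the lowest. Its log2 fold change of -0.42 (adjusted p = 0.62, edgeR) became -0.18 without IFN-γ tumor 3.

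**Figure D2:**
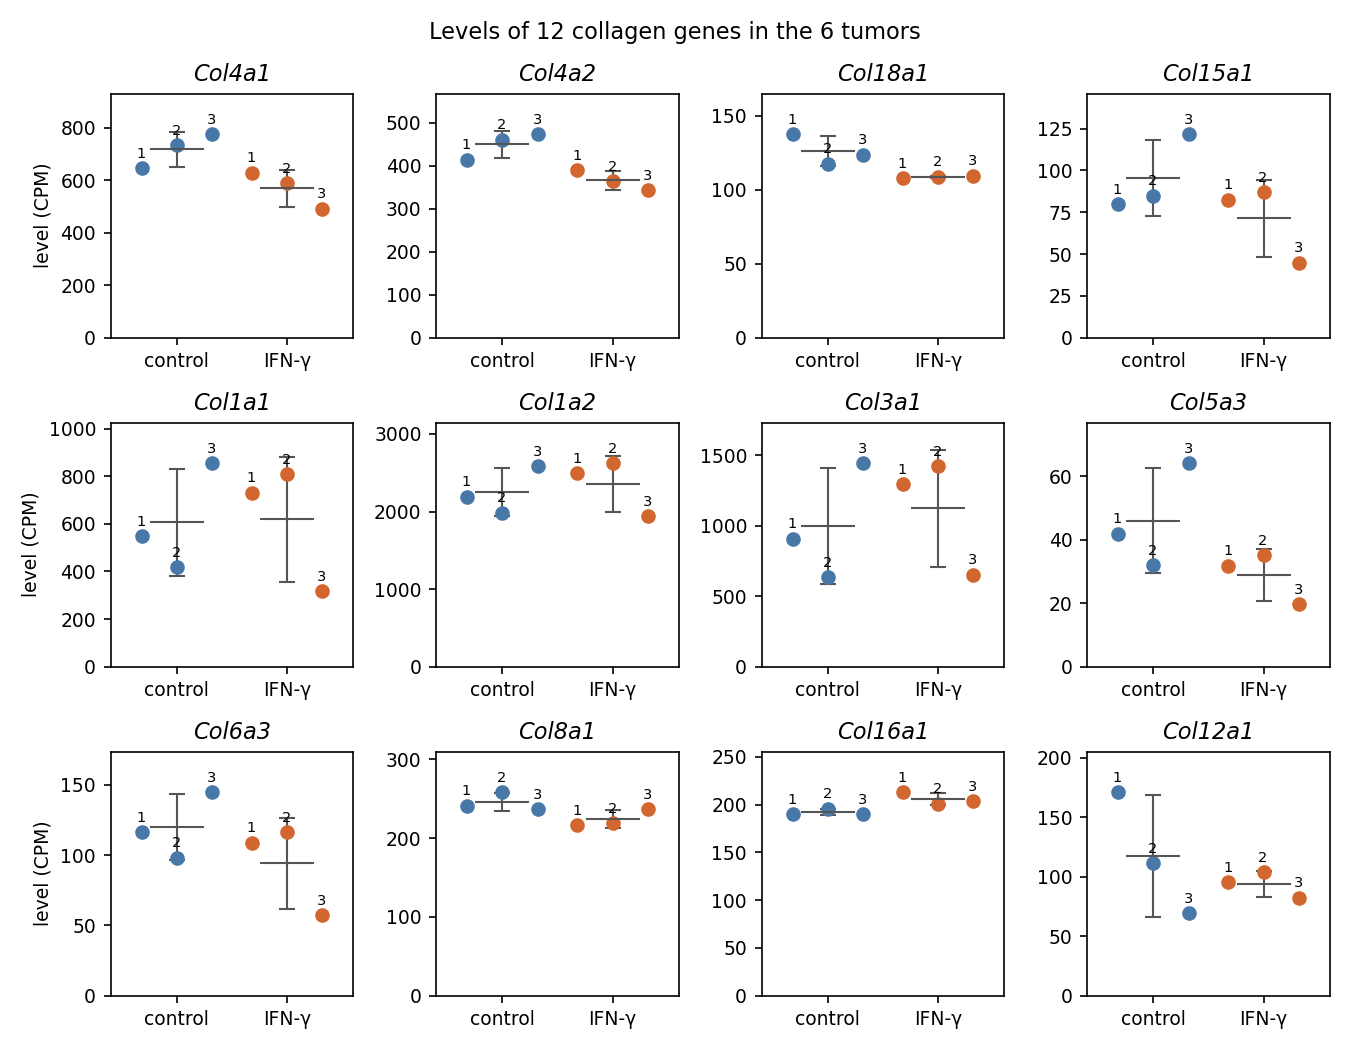
Level of 12 collagen genes in each tumor (CPM, y axes starting at 0), with control tumors in blue, IFN-γ tumors in orange, replicate numbers beside the points, and bars for the mean and SD of 3 tumors. The groups are separate for Col4a1, Col4a2 and Col18a1 (lower in the IFN-γ tumors) and for Col16a1 (higher), while Col1a1 and Col3a1 split each group.

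Other basement membrane components were examined in a list of 16 laminin, nidogen and proteoglycan genes with Pxdn, of which 14 were tested. None passed the adjusted threshold in edgeR. In 12 of the 14 the log2 fold change was below 0 (49.6% of all genes tested), with a median of -0.20 (0.0015 over all genes), and 6 had an unadjusted p under 0.05 and were lower (4.44% of all genes). Pxdn, the peroxidase that forms sulfilimine cross-links in type IV collagen, was at 132, 138 and 142 CPM in the controls and at 106, 103 and 99.4 CPM in the IFN-γ tumors. On the log2 scale the difference was -0.41 with a standard error of 0.068 (adjusted p = 0.096, edgeR), and the groups were well apart. In the other direction the smallest p belonged to Lama2, a laminin chain of muscle and nerve, at 0.082 on the log2 scale (adjusted p = 0.96, edgeR). The summed level of the list was 2163 to 2304 CPM in the controls and 1718 to 2000 CPM in the IFN-γ tumors.

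Markers of vessel cells were mostly at log2 fold changes below 0 as well, as were 49.6% of all genes tested (median 0.0015). Of 10 pericyte and smooth muscle markers, 9 were tested and 8 were below 0, with a median log2 fold change of -0.52. Their sum was 345 to 405 CPM in the controls and 245 to 322 CPM in the IFN-γ tumors. Abcc9, a potassium channel subunit of pericytes, passed the adjusted threshold (log2 fold change -1.25, adjusted p = 0.029, edgeR). In the same list Pdgfrb and Acta2 were at -0.14 and -0.12, and Myh11 was at 0.25. Of the 10 endothelial markers, all tested, 7 were below 0 and none passed, and their sum was 269 to 341 CPM in the controls and 228 to 297 CPM in the IFN-γ tumors. None of these marker genes was at 0 in all tumors. In bulk tissue, fewer cells of a type and less RNA per cell cannot be told apart, and the part of vessel cells in the type IV collagen values was not tested.

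For the abundant fibrillar collagens, no difference between the groups exceeded the spread within them. Type I collagen, the main protein of connective tissue fibers, joins α1 chains (Col1a1) with a smaller number of α2 chains (Col1a2). Col1a1 was at 548, 418 and 854 CPM in control tumors 1, 2 and 3, and IFN-γ tumors 1, 2 and 3 had 730.4, 807 and 317 CPM. The highest and the lowest of the 6 values thus belonged to control tumor 3 and IFN-γ tumor 3. The log2 fold change was 0.027 (95% interval -0.79 to 0.84, adjusted p = 0.99, edgeR). The fits that each left out 1 tumor gave from -0.21 without IFN-γ tumor 2 to 0.35 without control tumor 3, and 0.33 without IFN-γ tumor 3. Col3a1, the chain of type III collagen of pliable tissues such as skin and vessel walls, was at 907, 636 and 1443 CPM in the controls and at 1293, 1421 and 652 CPM in the IFN-γ tumors. Its log2 fold change was 0.17 (95% interval -0.61 to 0.95, adjusted p = 0.91, edgeR), and 0.44 without IFN-γ tumor 3.

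Col1a2 was the most abundant collagen on any scale used here and varied less than its partner. It was at 2193, 1983 and 2581 CPM in the controls and at 2491, 2623 and 1940 CPM in the IFN-γ tumors, so that the highest tumor had 1.35 times the level of the lowest, against 2.69 times for Col1a1. The log2 fold change was 0.062 (95% interval -0.25 to 0.38, adjusted p = 0.92, edgeR), and 0.18 without IFN-γ tumor 3. Corrected for transcript length, the mean level was 430.4 CPM per kb for Col1a2, 190.3 for Col3a1, 103 for Col1a1, 97.4 for Col4a1 and 63.2 for Col4a2. Lengths were those of the longest principal transcript of each gene in GENCODE M21. With the union of all annotated exons as the length, the values were 185 CPM per kb for Col1a2 and 93.3 for Col1a1. Per kb of principal transcript, Col1a2 exceeded Col1a1 by 4.44, 5.26 and 3.35 times in control tumors, and by 3.78, 3.60 and 6.79 times in IFN-γ tumors. Because Col1a1 is the divisor and varied more than Col1a2, the excess was smallest in the tumors with the most Col1a1. It was largest in IFN-γ tumor 3, which had the least. The annotated transcript need not be the one made in these tumors, so the size of this excess depends on the annotation.

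The Col1a2 window in RefSeq is chr6:4505368-4505667 on the plus strand of GRCm38.p6, and it is shown because Col1a2 was the most abundant collagen; capitals mark the same motifs as above.
Col1a2: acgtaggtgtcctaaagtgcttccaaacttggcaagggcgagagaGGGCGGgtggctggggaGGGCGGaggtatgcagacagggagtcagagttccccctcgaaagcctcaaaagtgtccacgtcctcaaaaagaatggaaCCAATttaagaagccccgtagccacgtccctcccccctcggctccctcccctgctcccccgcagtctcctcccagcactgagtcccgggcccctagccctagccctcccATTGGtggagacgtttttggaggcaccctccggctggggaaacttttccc
It holds 2 CCAAT and 2 GGGCGG motifs, counting both strands. Over the collagens, 35 of 44 genes had a window in the table, 38 windows in all. GGGCGG was found in 23 of these 38 windows (60.5%) and in 35.7% of all 32851 promoter windows, and CCAAT in 13 (34.2%) and in 37.4%. TATAAA was in 5 collagen windows (13.2%), among them that of Col3a1, and in 13.6% of all windows. The letters TTCNNNGAA of the gamma-activated site were in 2 collagen windows, those of Col28a1 and Col6a5, and in 8.30% of all windows. A form of the interferon-stimulated response element, a pair of GAAA runs with any 2 bases between them, was in 0 collagen windows and in 3.44% of all. Motifs were searched on both strands, and overlap between motifs was allowed.

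The minor fibrillar collagens regulate the diameter of type I fibers. Col5a1 was at 204, 175 and 267 CPM in the controls and at 237, 222 and 163 CPM in the IFN-γ tumors, and Col5a2 was at 114, 106 and 141 CPM against 118, 135 and 64.5 CPM. Their log2 fold changes were -0.055 and -0.19, and their groups overlapped. Without IFN-γ tumor 3 the values were 0.084 and 0.063. Col5a3, a less common type V chain, had 41.9, 31.9 and 64.2 CPM in the controls and 31.9, 35.1 and 19.8 CPM in the IFN-γ tumors. The groups overlapped at control tumor 2, with a log2 fold change of -0.67 (95% interval -1.31 to -0.033, unadjusted p = 0.041, adjusted p = 0.46, edgeR). It was -0.36 without control tumor 3 and -0.47 without IFN-γ tumor 3. Among the rare fibrillar genes, Col24a1 had the highest log2 fold change of its class, 0.67 (adjusted p = 0.67, edgeR), at 1.75, 0.789 and 1.54 CPM in the controls and 2.84, 2.57 and 1.05 CPM in the IFN-γ tumors. Its value ran from 0.39 without control tumor 2 to 0.99 without IFN-γ tumor 3. Col27a1, at 2.26 CPM on average, was the fourth tested collagen whose IFN-γ values all lay below the controls, with a log2 difference of -0.62 (adjusted p = 0.51, edgeR), at 2.88, 2.59 and 2.74 CPM against 2.15, 2.02 and 1.18 CPM.

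**Figure D3:**
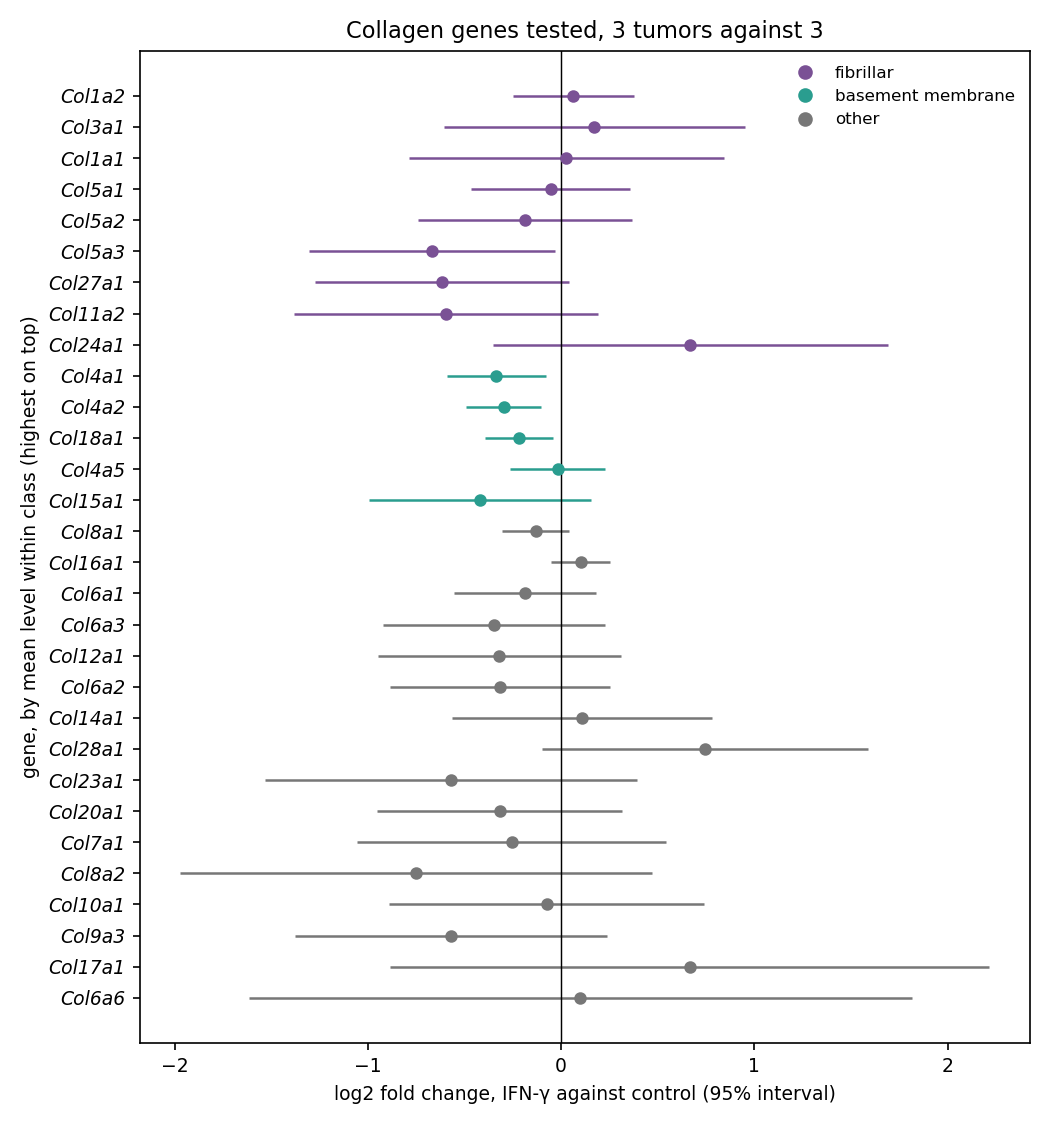
Log2 fold change of the 30 tested collagen genes in the IFN-γ group against the control group (x axis), with 95% intervals from edgeR not adjusted for the number of genes; genes are ordered by mean level within fibrillar (purple), basement membrane (green) and other collagens (grey). The intervals of Col4a1, Col4a2, Col18a1 and Col5a3 lie below 0, and the intervals of Col1a1 and Col3a1 are several times as wide as that of Col4a2.

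IFN-γ tumor 3 was often the lowest tumor, and control tumor 3 often the highest, among the collagens. IFN-γ tumor 3 had the lowest value of the 6 tumors for 16 of the 30 tested collagens, compared with 21.3% of all genes tested, and control tumor 3 had the highest value for 13 of the 30, compared with 14.3% of all genes. In the fibrillar class these numbers were 7 and 5 of 9, in the basement membrane class 3 and 3 of 5, and in the other class 6 and 5 of 16. The mean of IFN-γ tumors 1 and 2 was 2.42 times the level in IFN-γ tumor 3 for Col1a1, 2.08 times for Col3a1, 1.96 times for Col5a2 and 1.96 times for Col6a3, and 1.32 times for Col1a2. It was 1.10 times for Col4a2 and 0.991 times for Col18a1. Skeletal muscle genes also varied by tumor. Their summed level was 158, 263 and 1009 CPM in control tumors 1, 2 and 3, and 419, 515 and 179 CPM in the IFN-γ tumors, and 0 of the 10 genes passed the threshold in edgeR. Fibroblast markers ran from 431 to 530 CPM in the controls and from 541 to 597 CPM in the IFN-γ tumors, with 0 of 9 tested genes past the threshold and Tcf21 at 0 in all tumors. Their sum was dominated by Dcn, at 393 CPM in IFN-γ tumor 3, while Pdgfra and Thy1 were lowest there, at 43.0 and 34.0 CPM. The part of the muscle and fibroblast content in the collagen values was not tested.

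Type VI collagen forms beaded filaments around cells from 3 chains that are assembled together. Col6a1 was at 195, 174 and 245 CPM in the controls and at 205, 189.9 and 144 CPM in the IFN-γ tumors. Col6a2 was at 60.5, 55.1 and 91.8 CPM in the controls and at 64.5, 65.1 and 37.0 CPM in the IFN-γ tumors. Col6a3 was at 116, 98.2 and 145 CPM in the controls and at 109, 116 and 57.3 CPM in the IFN-γ tumors. All 3 genes were highest in control tumor 3 and lowest in IFN-γ tumor 3. The log2 fold changes were -0.19, -0.32 and -0.35 and did not pass the threshold, with adjusted p of 0.75, 0.73 and 0.70 (edgeR). Without IFN-γ tumor 3 they were -0.060, -0.10 and -0.097.

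Among the remaining collagens, several abundant genes varied little between tumors. Col8a1, of the hexagonal networks found beneath endothelium, was at 241, 258 and 236 CPM in the controls and at 216, 219 and 237 CPM in the IFN-γ tumors (log2 fold change -0.13, 95% interval -0.30 to 0.042). Col16a1, a fibril-associated collagen, was the steadiest of the collagens named here, at 190.1, 196 and 189.8 CPM in the controls and at 213, 200.7 and 204 CPM in the IFN-γ tumors. It was the only tested collagen whose IFN-γ values all lay above the controls, with a log2 fold change of 0.10 (95% interval -0.053 to 0.25, adjusted p = 0.67, edgeR). Col12a1 and Col14a1 are fibril-associated collagens of dense connective tissue. Col12a1 ran from 171 CPM in control tumor 1 to 69.2 CPM in control tumor 3, a range that contained the IFN-γ values of 95.7, 104 and 82.4 CPM. Col14a1 was at 16.3, 18.8 and 31.1 CPM in the controls and at 23.6, 31.8 and 16.0 CPM in the IFN-γ tumors, highest in control tumor 3 and IFN-γ tumor 2 as Col1a1 was, while Col12a1 was lowest in control tumor 3.

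The highest and lowest log2 fold changes outside the fibrillar and basement membrane classes belonged to scarce genes. Col28a1, known from Schwann cells of peripheral nerve, was at 7.63, 16.3 and 9.49 CPM in the controls and at 21.3, 24.9 and 10.0 CPM in the IFN-γ tumors. Its log2 fold change was 0.75 (95% interval -0.099 to 1.59, adjusted p = 0.54, edgeR), and it was 1.03 without IFN-γ tumor 3 (adjusted p = 0.093, edgeR). Of the 6 Schwann cell markers, 4 were tested, 2 above and 2 below 0, with a sum of 46.1 to 60.04 CPM in the controls and 45.6 to 48.7 CPM in the IFN-γ tumors. Col8a2, the partner chain of Col8a1, was at 0.688, 3.38 and 2.0 CPM in the controls and at 1.04, 1.65 and 0.928 CPM in the IFN-γ tumors (log2 fold change -0.75, adjusted p = 0.69, edgeR). This value rested on single libraries, at -0.16 without control tumor 2 and -1.15 without control tumor 1. Col17a1, a transmembrane collagen that anchors basal keratinocytes, was at 0.611 to 1.35 CPM in 5 tumors and at 3.52 CPM in IFN-γ tumor 3. Its log2 fold change was 0.67 (adjusted p = 0.80, edgeR) and -0.63 without that tumor. The 10 keratinocyte markers summed to 81.3 CPM in that tumor and to 10.1 to 18.3 CPM in the others. Krt14 was at 33.2 CPM there and at 0.169 to 3.88 CPM elsewhere. Of the 10 markers, Trp63 alone was not highest there, at 2.72 CPM against 5.28 and 6.48 CPM in IFN-γ tumors 1 and 2. The part of keratinocytes in the Col17a1 value was not tested. Col17a1 was chosen after its values were seen.

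The other tested collagens, Col23a1, Col20a1, Col7a1, Col11a2, Col10a1, Col9a3 and Col6a6, averaged from 1.04 CPM (Col6a6) to 4.80 CPM (Col23a1). Their log2 fold changes ran from -0.60 for Col11a2 to 0.10 for Col6a6, and every 95% interval included 0. The direction for Col6a6, Col7a1 and Col10a1 changed when single tumors were left out. Exon bases are shared with another annotated gene on the same strand by Col20a1 (79) and Col7a1 (36). Col9a3 (234), Col6a6 (63) and Col10a1 (18) share bases with a gene on the opposite strand, and strandedness is not given. The levels of these genes are uncertain to that extent.

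The 14 collagens that did not pass the filter had from 0 to 66 counts in the 6 tumors together. Col11a1 was the highest of them, with control counts of 12, 25 and 10 and IFN-γ counts of 7, 5 and 7. Col2a1, the collagen of cartilage, had 14 counts and Col9a1 had 3, and Col9a2 had none in any tumor. Taken alone, 0 counts in the smallest library put an upper bound of about 0.188 CPM (3 counts, counting error alone) on the level there. With 0 counts in all 6 tumors, the bound on a level shared by them is lower. Of the 8 listed markers of cartilage cells, Acan and Hapln1 were likewise at 0 counts in all 6 tumors. Sox9, the only marker of this list tested, was at 15.4 to 23.9 CPM in the controls and at 12.4 to 15.2 CPM in the IFN-γ tumors. Its log2 fold change was -0.53 (adjusted p = 0.38, edgeR). The rest of the list stayed at 0.343 CPM or less.

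The proportions of chains within a tumor depend little on library scaling, except for scarce chains such as Col4a6, because 0.5 CPM was added to each level. In all, 9 pairs were compared by a two-sided exact permutation test of the mean log2 ratio, whose smallest possible p with 3 tumors against 3 is 0.1. The log2 ratio of Col1a1 to Col3a1 was -0.73, -0.61 and -0.76 in control tumors, against -0.82, -0.81 and -1.04 in IFN-γ tumors. This was the only pair whose groups did not overlap (difference -0.20, exact p = 0.1, adjusted over the 9 pairs 0.8). The ratio of Col1a1 to Col1a2 averaged -1.95 ± 0.33 in controls and -2.03 ± 0.51 under IFN-γ (SD, n = 3 each, exact p = 0.8). Col6a1 to Col6a3 differed by 0.21 between the groups (exact p = 0.4), with 1.33 in IFN-γ tumor 3 and 0.70 to 0.91 in the other tumors. Col5a1 to Col5a2 differed by 0.19 (exact p = 0.5), again with the highest ratio, 1.33, in IFN-γ tumor 3. Col4a1 to Col1a1, which sets basement membrane against fibrillar collagen, was 0.30 ± 0.48 in the controls and -0.013 ± 0.57 in the IFN-γ tumors (SD, n = 3 each, exact p = 0.5). For the other pairs, the exact p was 0.7 for Col4a1 to Col4a2, 0.5 for Col6a1 to Col6a2, 0.6 for Col8a1 to Col8a2 and 0.8 for Col4a5 to Col4a6, where Col4a6 was near 0.

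**Figure D4:**
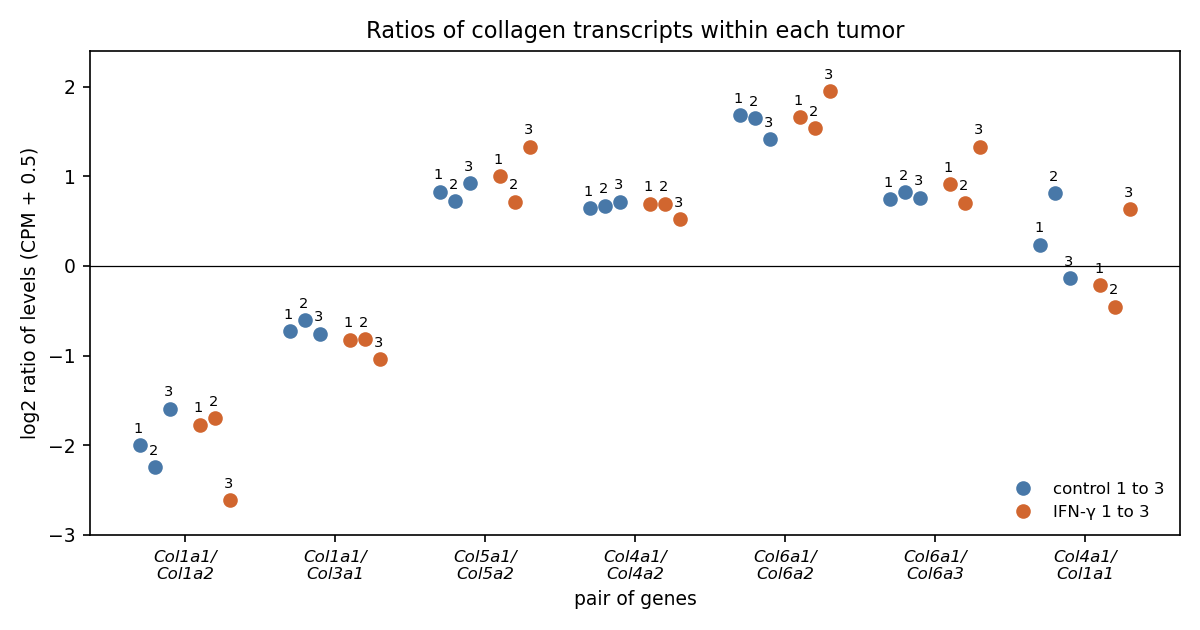
Log2 ratio of the levels of paired collagen genes (CPM plus 0.5, y axis) in each tumor, with control tumors in blue, IFN-γ tumors in orange and replicate numbers above the points. The points of Col4a1/Col4a2 lie within 0.20 of each other, those of Col1a1/Col1a2 spread over 1.02, and IFN-γ tumor 3 has the highest or lowest ratio in 6 of the 7 pairs plotted, the exception being Col4a1/Col1a1.

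Genes that act on collagen chains after translation were examined by their steps, and 0 passed the adjusted threshold in edgeR at any step. At an unadjusted p under 0.05, 1 of 19 tested folding genes was lower and 0 were higher in the IFN-γ group. The numbers lower and higher were 0 and 0 of 8 for export, 0 and 1 of 6 for propeptide removal, and 1 and 0 of 6 for cross-linking. They were 0 and 1 of 11 for receptors, 1 and 4 of 14 for fibril partners, and 1 and 3 of 13 for the TGF-β list. Over all genes tested, 4.44% were lower and 5.74% higher at this p. In lists of 6 to 19 tested genes, counts of 0 and 1 are too few to set against these shares. In the endoplasmic reticulum, hydroxylases and chaperones prepare the chains for folding, and 19 of 19 listed genes were tested, 12 above and 7 below 0 (median log2 fold change 0.037). Plod1, a lysyl hydroxylase, had the smallest p of those above 0 (0.18, adjusted p = 0.50, edgeR), and P3h2, a prolyl 3-hydroxylase with type IV collagen among its substrates, had the smallest p below 0 (-0.91, adjusted p = 0.39, edgeR). P3h2 was at 1.13, 1.41 and 1.77 CPM in the controls and at 0.813, 0.794 and 0.680 CPM in the IFN-γ tumors, without overlap. Export of procollagen from the endoplasmic reticulum gave 2 genes above and 6 below 0. The smallest p values belonged to Mia2 at 0.15 (adjusted p = 0.61, edgeR) and Trappc2 at -0.19 (adjusted p = 0.73, edgeR). Of the genes for propeptide removal, 6 of 10 were tested. Pcolce, which enhances cleavage of the C-propeptide of fibrillar collagens, was at 700.0, 618 and 731 CPM in the controls and at 780, 843 and 819.6 CPM in the IFN-γ tumors. Its groups did not overlap, with a log2 fold change of 0.25 (unadjusted p = 0.018, adjusted p = 0.38, edgeR). Adamts14, a protease for the N-propeptide, was at -0.30 (adjusted p = 0.54, edgeR).

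Of the 6 cross-linking genes, 4 were above and 2 below 0. Loxl4, a lysyl oxidase, was at 56.5, 55.8 and 50.9 CPM in the controls and at 45.7, 44.3 and 42.5 CPM in the IFN-γ tumors (log2 fold change -0.30, adjusted p = 0.28, edgeR), and Tgm2, a transglutaminase, was at 0.31 (adjusted p = 0.57, edgeR). Among 11 tested collagen receptors, 4 were above and 7 below 0. Lair1, an inhibitory collagen receptor of leukocytes, was at 30.9, 45.7 and 41.4 CPM in the controls and at 81.6, 82.6 and 45.6 CPM in the IFN-γ tumors. Its log2 fold change was 0.83 (unadjusted p = 0.0068, adjusted p = 0.31, edgeR), and IFN-γ tumor 3 was at the level of control tumor 2. The 8 macrophage markers summed to 2051 to 2256 CPM in the controls, to 2915 CPM in IFN-γ tumor 1, to 3179 CPM in IFN-γ tumor 2 and to 2181 CPM in IFN-γ tumor 3, and their part in the Lair1 value was not tested. Ddr2, a receptor tyrosine kinase for fibrillar collagen, was at -0.14 (adjusted p = 0.54, edgeR).

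Proteins that share the fibril with collagen gave 8 genes above and 6 below 0 among 14. Tnxb, the tenascin whose loss causes a form of Ehlers-Danlos syndrome, was at 56.3, 52.3 and 62.8 CPM in the controls and at 96.1, 111 and 85.0 CPM in the IFN-γ tumors. The groups were clearly apart: the log2 difference was 0.77 with a standard error of 0.11 (adjusted p = 0.074, edgeR). Fn1, the fibronectin on which collagen fibers are laid down, was at -0.26 (adjusted p = 0.45, edgeR). In the TGF-β list, a pathway known for inducing collagen genes, 13 of 14 genes were tested, 8 above and 5 below 0. Ltbp1, which tethers latent TGF-β to the matrix, was at -0.33 (adjusted p = 0.47, edgeR). The 10 adipocyte markers, all tested, were above 0 with a median log2 fold change of 2.14, and none passed the threshold in this fit. Over all genes, 7623 of 15114 were above 0, with a median of 0.0015. At an unadjusted p under 0.05, 9 of these markers were higher (5.74% of all genes tested, edgeR). Their sum was 128 to 179 CPM in the controls and 198 to 270.2 CPM in the IFN-γ tumors, and their part in the Col6a, Col15a1 and Tnxb values was not tested. Most of this sum was Fabp4, at 91.0 to 141 CPM, whose log2 fold change was 0.23 (adjusted p = 0.65, edgeR).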

How the data were processed

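RNA-seq of 6 tumors, 3 per group, was analysed from the count table that the authors deposited, which holds 1 unnormalized whole number per gene and tumor. The submitters' processing notes name HISAT2 and mm10 without a version or role. The counter, the annotation and the strandedness are not given in the sources used here. Without strand, reads of overlapping genes such as Col4a1 and Col4a2 at their shared first exons cannot be told apart.

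The count table was tested as a whole with edgeR 4.0.16 (R 4.3.3): TMM factors, filterByExpr at its defaults, quasi-likelihood F tests, and Benjamini-Hochberg adjusted p over 15114 genes, with 0.05 as the threshold. The standard error was the size of the log2 fold change divided by the square root of F. CPM used the TMM factors. Ratios of chains used log2 of CPM plus 0.5 and exact permutation tests (SciPy 1.17.1). Alternatives were DESeq2 1.42.0, limma-voom 3.58.1, other scalings, no filter, a replicate block and fits without each tumor in turn. The scripts were tested on simulated data.

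Collagen classes and gene lists came from textbook knowledge. Members and lists were chosen with earlier results of these data known. Collagens were named singly if their mean was at least 20 CPM, if their unadjusted p was under 0.05, or if they were the highest or lowest log2 fold change of their class. Col17a1, Col27a1 and a few marker and untested genes were added after their values were seen. From each pathway list, the gene with the smallest p in each direction was named, except 1 that is not reported here. All 44 collagen identifiers, and 99.5% of all identifiers, were in GENCODE M21. Nothing says how the tumors of a group were separated beyond their numbers, so p-values measure the spread between these samples. No library duplicated another (chi-square per gene of at least 6.19 for each pair). A legend of the study gives 2 IFN-γ tumors for its RNA-seq panels, with 3 controls for the pathway panel and 2 for the gene panel. It does not name the tumors, and all 3 of each group were used here.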

Additional observations from a re-analysis of the deposited data

How the results depend on the processing

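The number of collagens past the threshold was 0 in edgeR with all 6 tumors and 0 under each of the 13 alternatives, in 30 to 43 collagens tested. The number of all genes past the threshold did depend on the fit. With all 6 tumors it was 12 higher and 5 lower. It was 121 and 67 with DESeq2 and 150 and 70 with no filter on low counts. Scaling by library size alone gave 7 higher, and limma-voom gave 3 lower. With the replicate number as a block it was 5 and 2. Deviations of same-numbered tumors from their group means correlated at -0.24, -0.0047 and -0.22, and the numbers were therefore read as names and not as pairs. Fits that each left out 1 tumor gave from 4 to 381 higher and from 2 to 112 lower, with the highest numbers without IFN-γ tumor 3, where 0 of 32 collagens were called against 2.46% of all genes higher and 0.723% lower.

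For the 21 collagens that the naming rule chose, the alternatives gave 273 comparisons. In 255 neither the direction nor the call changed, and in 18, for 8 collagens, the direction reversed. For Col1a1 it was -0.022 with limma-voom. When each tumor was left out in turn, the log2 fold change ran from -0.21 to 0.35 for Col1a1, from -0.025 to 0.18 for Col1a2, from -0.067 to 0.53 for Col3a1, from -0.18 to 0.12 for Col5a1, from -0.40 to 0.063 for Col5a2, from -0.12 to 0.041 for Col4a5, from -0.59 to 0.057 for Col12a1 and from -0.16 to 0.43 for Col14a1. Outside these 21, the range over the alternatives also crossed 0 for Col17a1 (-0.63 to 1.05), Col6a6 (-0.50 to 1.25), Col7a1 (-0.44 to 0.19) and Col10a1 (-0.44 to 0.12). Of 80 comparisons of chain ratios, 7 reversed. The difference in log2 ratio ran from -0.24 to 0.21 for Col1a1/Col1a2, from -0.071 to 0.016 for Col4a1/Col4a2, from -0.083 to 0.12 for Col4a5/Col4a6 and from -0.056 to 0.75 for Col8a1/Col8a2, and with counts plus 1 it was -0.0015 for Col4a5/Col4a6. Leaving out a tumor changes the samples, and otherwise the cause was not tested. With 3 tumors per group, the 95% interval of a log2 fold change reached from -0.79 to 0.84 for Col1a1 and from -0.49 to -0.10 for Col4a2, so a difference of the size measured for Col4a2 lay well within the interval for Col1a1.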
